A study of Mus musculus with 12 samples.

Results

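Small intestines of PPARα-null and wild-type mice that had been fasted for 24 h were compared on 6 Affymetrix MOE430A arrays, 3 of each genotype, out of 12 arrays in the series. The other 6 arrays, from fed mice of both genotypes, are used to show where the fasted comparison stands apart. Arrays were assigned to a genotype by their titles. The free-text descriptions of the 3 wild-type fasted arrays call the mice PPARα knockouts, whereas their titles and strain labels say wild type. All mice were male and 14 weeks old. The PPARα-null fasted mice were of the substrain 129S4/SvJae and the wild-type fasted mice of the substrain 129S1/SvImJ, so that genotype and substrain cannot be told apart. The labels of the fed arrays give 129Sv for both genotypes. The methods, however, name the same substrains by genotype for the mice of the study and do not set fed mice apart. On that account genotype and substrain cannot be told apart in fed mice either. The null allele is carried in all tissues, so that liver, fat and other organs of these mice lacked the receptor too. The design text of the series names AIN93M as the diet, and the methods name a standard chow. RNA came from the full length of the small intestine, with fat and pancreatic tissue taken off beforehand. The replicates are biological replicates according to the design text, which does not say whether each was 1 mouse or a pool.

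PPARα is a nuclear receptor that fatty acids and their derivatives activate. It binds DNA together with a retinoid X receptor at direct repeats of a short half-site, and its best known targets carry fatty acids into cells, into mitochondria and into peroxisomes and oxidize them there. During fasting, fatty acids released from fat tissue reach the liver, heart, muscle and intestine, and PPARα is known above all for raising fatty acid oxidation and ketone body synthesis in the fasted liver. In the small intestine the receptor is made by enterocytes, the absorptive cells of the villi, which also handle fatty acids arriving with food.

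Ppara itself was measured first. Its only probe set had intensities of 58.7, 48.1 and 30.8 in the 3 wild-type fasted arrays and of 13.2, 11.7 and 11.0 in the 3 PPARα-null fasted arrays. All 3 null arrays were lower than all 3 wild-type arrays, an order that the titles give and the free-text descriptions do not. The difference was −1.89 on the log2 scale, PPARα-null minus wild-type (standard error 0.23, limma adjusted p = 4.51e-05), and in fed mice it was −2.0 (standard error 0.23, adjusted p = 0.000919). The sources used here do not say whether this probe set lies in the part of the gene that was deleted.

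The deposited values are GCRMA intensities on a linear scale, and they were taken to log2 and fitted with limma. A probe set was tested where its mean intensity was over 20 in either fasted group, and it was called where the unadjusted p was under 0.01 and the fold change over 1.3. Every log2 difference below is PPARα-null minus wild-type in fasted mice unless fed mice are named, and each adjusted p was corrected after Benjamini and Hochberg across the probe sets that were tested. Where values of 6 arrays are given as 3 against 3, the wild-type fasted arrays come first, each genotype in order of replicate. Fed and fasted arrays each had a distribution of values of their own. Levels are therefore not compared between fed and fasted mice except where this is stated, only the genotype difference within each state. Correlations between arrays of 1 group were 0.986 or higher, except that PPARα-null fasted replicate 2 had 0.974 and 0.975 with the other 2 arrays of its group, which had 0.993 with each other. That array also differed in the signal of exocrine pancreas genes, with a summed intensity of 6956. PPARα-null replicates 1 and 3 had 34616 and 35528, and the wild-type fasted arrays 18120 to 29897. In the fed arrays, set beside these only for this sum, it was 6685.5 to 9134.1. The high pancreas signal was thus that of the other fasted arrays, and PPARα-null replicate 2 was at the level of the fed arrays. None of the 17 tested pancreas genes was called, against 36.8% of all tested genes, and 2 were called higher without PPARα-null replicate 2. The number of arrays, 3 in each group, limits the precision of each value.

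In fasted mice 2841 of the 9217 tested probe sets were called, 1289 higher and 1552 lower in PPARα-null. They belonged to 2112 of 5744 tested genes (36.8%). Of these, 944 were called higher only (16.4%), 1129 lower only (19.7%), and 39 had probe sets called in both directions. The difference exceeded 2-fold for 219 probe sets that were higher and 391 that were lower, and 4-fold for 34 and 34. The 3 arrays of the genotypes did not overlap on 4665 of the tested probe sets (50.6%), and on 2781 of those called. Without PPARα-null replicate 2, 2004 genes were called, and leaving out each of the 6 arrays in turn gave between 1930 and 2052.

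In fed mice the same comparison called 204 of 5931 tested genes (3.44%), 84 higher (1.42%) and 120 lower (2.02%). With each array centred on its median, 28.3% of the fed calls were higher, against 41.2% as deposited, and with quantile normalization of the arrays 31.1%. The genotype difference itself was compared between fasted and fed mice, gene by gene, and it differed for 1810 of 6107 genes (29.6%) at an adjusted p under 0.05. Of the genes with a differing effect, 37.5% had a more positive difference in fasted mice, and 52.4% with each array centred. Among the 2112 genes called in fasted mice, 1494 (70.7%) were also among those whose difference was not the same in fed mice. Both tests use the same fasted difference, so that this share is not independent of the fasted calls.

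Genes that PPARα is known to control, and the receptor with its partners, were followed in 10 target lists by role. These lists held 141 genes that have a probe set of their own on the array. Of these, 107 passed the level of 20 in fasted mice and 34 did not. In PPARα-null fasted mice 34 of the 107 fell (31.8%, against 19.7% of all tested genes) and 18 rose (16.8%, against 16.4%). In fed mice 28 of 108 were lower (25.9%, against 2.02% of all tested genes) and 1 was higher. Lower in both states were 20 genes, and the only gene higher in both was Acot9, a mitochondrial thioesterase. Ppara itself, the gene with the null allele, is counted as lower in fasted mice, in fed mice and in both. With each array left out in turn, 31 to 34 genes were lower and 14 to 18 higher in fasted mice. In whole tissue, fewer cells of a type and less RNA per cell cannot be told apart, for these genes and for those below.

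**Figure D1:**
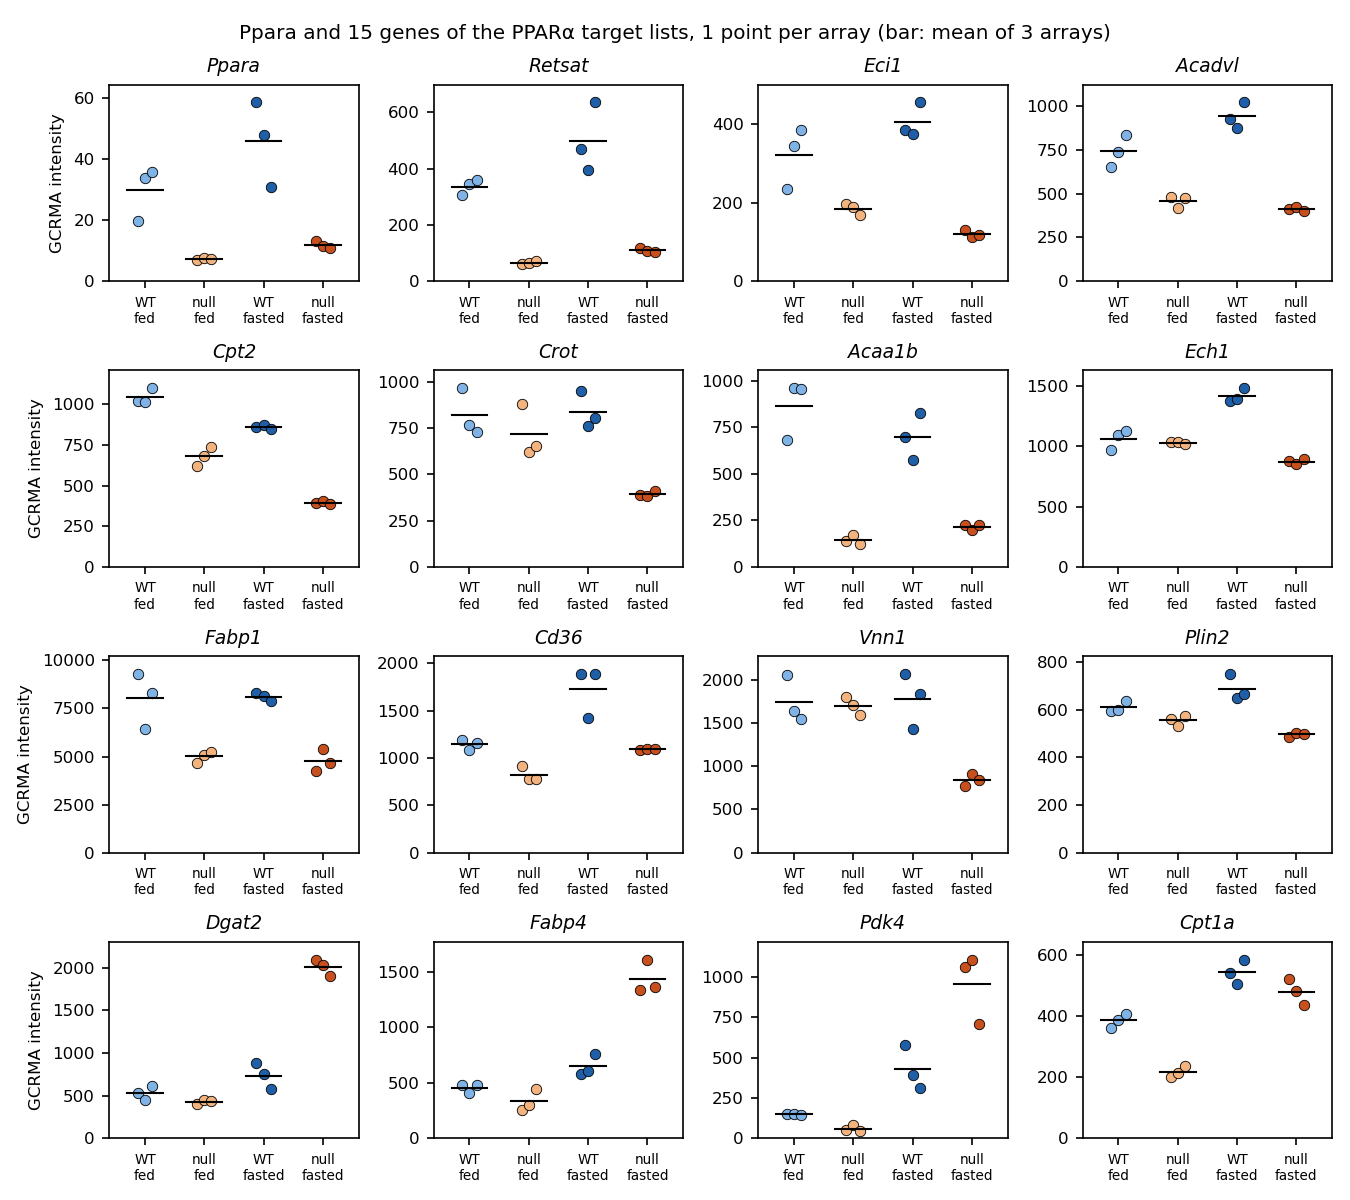
GCRMA intensity (linear y axis from 0) of Ppara and 15 genes of the target lists on each of the 12 arrays, grouped on the x axis as wild-type fed, PPARα-null fed, wild-type fasted and PPARα-null fasted. Points are arrays and the bar is the mean of 3. Levels are to be compared within a feeding state. Retsat, Eci1, Acadvl, Cpt2, Acaa1b, Fabp1 and Cd36 were lower in PPARα-null mice in both states, Crot, Ech1, Vnn1 and Plin2 in fasted mice, and Dgat2, Fabp4 and Pdk4 were higher in fasted mice, whereas Cpt1a was lower in fed mice and overlapped in fasted mice.

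The element that PPARα and its partner bind is made of 2 copies of AGGTCA in the same direction with 1 base between them. RefSeq promoter windows (build GRCm38.p6, 250 bases before to 50 bases after each start) were searched for it on both strands, the base between the copies being free. With at most 2 of the 12 letters changed, it was found in 1268 of 32851 windows of all genes (3.86%) and in 17 of 145 windows of the target lists (11.7%), which covered 111 of the 141 genes. It was found in 5 of the 30 windows of the target genes that were lower in fasted PPARα-null mice (16.7%), in 1 of 21 windows of those that were higher (4.76%) and in 7 of 61 windows of those tested and not called (11.5%). Among all genes lower in fasted PPARα-null mice it was found in 2.92% of windows, among all that were higher in 2.64%, and among all tested in 3.10%. No window of a target gene held it with every letter kept, and 13 of the 32851 did. Shown here are the stretches around the matches in 4 lower genes and in the 1 higher gene of the target lists. These genes are described below, and the stretches are on the strand of the gene, with the 13 letters of the match in capitals. The match of the fifth lower gene, Slc25a20, lies after its start and is not shown. In Fabp1, Cd36, Cyp4f16 and Plin2 the match reads on the opposite strand, where AGGTCA appears as TGACCT. A match is a likeness of letters and was not tested for binding.
Fabp1 (chr6:71199772-71199864, plus strand, 1 letter changed, 54 bases before the start): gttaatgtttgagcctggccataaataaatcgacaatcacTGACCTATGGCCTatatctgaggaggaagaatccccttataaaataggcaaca
Cd36 (chr5:17835907-17835999, minus strand, 2 letters changed, 50 bases before): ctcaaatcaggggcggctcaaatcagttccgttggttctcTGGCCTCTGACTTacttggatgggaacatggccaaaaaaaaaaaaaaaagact
Cyp4f16 (chr17:32536336-32536428, plus strand, 2 letters changed, 168 bases before): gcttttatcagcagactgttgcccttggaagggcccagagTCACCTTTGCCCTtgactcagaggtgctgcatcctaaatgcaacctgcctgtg
Plin2 (chr4:86670232-86670309, minus strand, 2 letters changed, 212 bases before): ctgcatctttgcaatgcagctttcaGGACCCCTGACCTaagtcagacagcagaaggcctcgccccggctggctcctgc
Rxra (chr2:27709177-27709269, plus strand, 2 letters changed, 62 bases before): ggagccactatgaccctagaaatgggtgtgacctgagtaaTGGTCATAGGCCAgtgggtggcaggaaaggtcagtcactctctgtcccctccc

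Among the receptors and their partners, 8 of 11 genes were tested, and Ppara itself was the only one that fell. Of them 4 rose, namely Pparg, Rxra, Nrip1 and Ncoa1, so that 62.5% of the 8 were called, against 36.8% of all tested genes. Pparg, the relative of Ppara that drives fat storage in adipocytes, had intensities of 30.7, 34.4 and 29.8 in wild-type and 51.3, 85.1 and 71.9 in PPARα-null fasted arrays, with no overlap and a difference of 1.11 (standard error 0.19, adjusted p = 0.000523). Nrip1, a corepressor of nuclear receptors, had 68.5, 77.6 and 37.1 against 144, 119.7 and 146, a difference of 1.23 (standard error 0.24, adjusted p = 0.00151). In fed mice neither was called, with differences of 0.10 for Pparg and 0.19 for Nrip1, and both passed the test of the difference between the states (adjusted p = 0.0168 and 0.0444). Rxra, the retinoid X receptor whose promoter stretch is shown above, and the coactivator Ncoa1 were 0.43 and 0.53. The call of Rxra was lost without PPARα-null replicate 1 or 2 or wild-type replicate 3 (0.39 to 0.41), and that of Ncoa1 without PPARα-null replicate 1 or wild-type replicate 2 (0.42 to 0.50), and 2 genes of the list were called higher without PPARα-null replicate 1. The acetyltransferase and coactivator Crebbp was at −0.44 and not called, but it was called lower without PPARα-null replicate 1 (−0.59) or wild-type replicate 2 (−0.56). The partner Rxrb (−0.15) and the mediator subunit Med1 (−0.19) overlapped between the genotypes and were not called.

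Fatty acid uptake, binding and activation had 11 of 15 genes tested, of which 4 fell and 3 rose (63.6% called, against 36.8% of all tested genes). Fabp1, the liver-type fatty acid binding protein an abundant message of the villus, fell from 8288, 8133 and 7883 to 4244, 5398 and 4639 (−0.77, standard error 0.13, adjusted p = 0.000416). The scavenger receptor Cd36 had 1889, 1424 and 1888 in wild-type arrays, and its 3 PPARα-null arrays lay close together at 1087, 1092 and 1098 (−0.65, standard error 0.11, adjusted p = 0.000538). Its 2 other probe sets, at −0.42 and −0.22, were not called. Slc27a2, an acyl-CoA synthetase that takes up very long chains, was lower by a like amount (−0.73). These 3 genes were lower in fed mice as well, with differences of −0.67, −0.48 and −0.57, and the difference between the states did not pass the test for any of them.

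Other binding proteins rose. Fabp6, which binds bile acids in the ileum, had 2042, 2798 and 2764 in wild-type and 5656, 6227 and 5584 in PPARα-null fasted arrays, a difference of 1.21 (standard error 0.14, adjusted p = 3.47e-05). Fabp4, the binding protein of adipocytes and macrophages, had 582, 603 and 759.8 against 1333, 1611 and 1361 (1.15, standard error 0.18, adjusted p = 0.000244). Neither gene was called in fed mice (0.0059 and −0.49), and both differed between the states (adjusted p = 0.00127 and 0.000631). Fabp2, the intestinal-type binding protein, lay between 9034 and 9984 on all 6 arrays and was not called (0.07). Some calls rested on single arrays. Dbi, the acyl-CoA binding protein (−0.59), lost its call without PPARα-null replicate 1 (−0.47), and Acbd3 (0.53), whose arrays overlapped, without PPARα-null replicate 1 or 3 or wild-type replicate 2 or 3 (0.37 to 0.56).

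The carnitine shuttle carries acyl chains across the mitochondrial membranes. Of its 7 genes, all tested, 4 fell and 1 rose (71.4% called, against 36.8% of all tested genes). Cpt2, the carnitine palmitoyltransferase of the inner membrane, gave 859, 874 and 848 in wild-type and 393, 402 and 387 in PPARα-null fasted arrays, with a spread within either genotype that was small beside the gap (−1.13, standard error 0.080, adjusted p = 6.97e-07). Crot, the peroxisomal carnitine octanoyltransferase, had 953, 759.9 and 807 against 388, 383 and 410.3 (−1.09, standard error 0.14, adjusted p = 7.63e-05). In fed mice Cpt2 was lower too (−0.62), while Crot was not called (−0.20), and for both the fasted difference was the larger one (adjusted p = 0.00714 and 0.00762 for the difference between the states). Slc25a20, the carnitine-acylcarnitine carrier, fell by 0.73 on the log2 scale in fasted mice, from 339, 268 and 272 to 180.2, 183 and 163, and was at −1.31 in fed mice.

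Cpt1a, the outer-membrane transferase that controls entry into the shuttle, went otherwise. Its fasted arrays overlapped, with 542, 506 and 584 in wild-type and 522, 481 and 436 in PPARα-null mice, and it was not called (−0.18, adjusted p = 0.158). In fed mice it was lower, with a difference of −0.84 (adjusted p = 0.000919), and the difference between the states was 0.66 (standard error 0.14, adjusted p = 0.00498). Its 2 other probe sets were called in neither state. Of the other members, Crat, carnitine acetyltransferase, had −0.45 and kept its call only without wild-type replicate 3 (−0.48 to −0.36 without PPARα-null replicate 1, 2 or 3 or wild-type replicate 1 or 2). Slc25a20 lost its call without PPARα-null replicate 3 or wild-type replicate 1 (−0.68 to −0.62). The carnitine transporter Slc22a21, a gene of low signal, rose by 0.75 and lost its call without PPARα-null replicate 1 or wild-type replicate 3 (0.53 to 0.61).

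Of the enzymes of mitochondrial β-oxidation, 17 of 18 were tested, 7 fell (41.2%, against 19.7% of all tested genes) and none rose. The median over all 18 was −0.35, against 0.038 over all genes on the array. The largest fall was that of Eci1, which shifts the double bonds of unsaturated chains, with 385, 374 and 455 in wild-type and 131, 111 and 118 in PPARα-null fasted arrays (−1.75, standard error 0.16, adjusted p = 4.15e-06). Acad11, an acyl-CoA dehydrogenase, had 889, 858 and 917 against 367, 359.8 and 402 (−1.24), and Acadvl, the dehydrogenase of very long chains, 929, 874 and 1021 against 412, 423 and 400.2 (−1.19). All 3 genes were also lower in fed mice, by less (−0.77, −0.40 and −0.69), and the difference between the states passed the test for each (adjusted p = 0.00749, 0.00314 and 0.0251). Hadhb, a subunit of the trifunctional protein, Decr1, Acadm, the medium-chain dehydrogenase, and Eci2 fell by smaller amounts, from −0.51 to −0.41.

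Not every step was lower. Hadh, the short-chain hydroxyacyl-CoA dehydrogenase, lay between 7189 and 7664 on all 6 fasted arrays (−0.038). Acaa2, the thiolase of the last step, had 3167, 2664 and 3262 in wild-type and 3655, 3212 and 3291 in PPARα-null arrays (0.16), whereas in fed mice it was lower (−0.43), and the difference between the states passed the test (adjusted p = 0.0111). Acadl, the long-chain dehydrogenase, had 2324, 2361 and 2461 against 1846, 2072 and 1797, without overlap, but its −0.32 did not reach a 1.3-fold change. Without PPARα-null replicate 2 it did, at −0.39.

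Peroxisomes shorten very long and branched chains. Here 16 of 20 genes were tested, 7 fell and 1 rose (50% called, against 36.8% of all tested genes). Acaa1b, a peroxisomal thiolase, fell most, from 697, 575 and 829 in wild-type to 225, 197 and 223 in PPARα-null fasted arrays (−1.69, standard error 0.16, adjusted p = 7.42e-06). Its fed difference was larger, at −2.56 (adjusted p = 0.0171 for the difference between the states). Ech1, which isomerizes double bonds, had 1377, 1391 and 1484 against 875, 850.1 and 896 (−0.70), and in fed mice its difference was −0.046. Decr2 (−1.06), the thiolase Acaa1a (−0.86), the thioesterase Acot8 (−0.85), Hsd17b4 (−0.73) and Ehhadh (−0.50), the multifunctional enzymes, made up the rest of those that fell. The assembly factor Pex16 rose (0.60) but lost its call without PPARα-null replicate 2 or wild-type replicate 2 (0.46 to 0.56), and 2 genes were called higher without PPARα-null replicate 3. The fatty acid transporter Abcd3 (0.0087), the sterol carrier Scp2 (−0.18) and Phyh (−0.18), which starts the oxidation of phytanic acid, were not called.

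Short lists of related enzymes followed, each with 33.3% of its tested genes called, against 36.8% of all tested genes. Of 11 acyl-CoA thioesterases 6 were tested, and Acot1, of the cytosol, fell from 169, 126 and 163 to 76.4, 75.6 and 80.5 (−0.96), with a like difference in fed mice (−0.92). Acot9 rose in both states, by 0.85 and 0.51. Of 4 ketone body genes 3 were tested, and Acat1, which joins or splits acetyl-CoA units, fell from 719.6, 679 and 616 to 455, 398 and 425 (−0.66, adjusted p = 0.000735), with 0.021 in fed mice. Without wild-type replicate 1, 2 of these were called lower, and without wild-type replicate 2, 1 was called higher. Among 11 genes of ω-hydroxylation 6 were tested. Cyp4f16, whose promoter stretch is shown above, had 373, 489 and 314 in wild-type and 169, 139 and 166 in PPARα-null fasted arrays (−1.29, standard error 0.15, adjusted p = 2.66e-05). In fed mice it had −0.087, and the states differed (adjusted p = 0.00152). The aldehyde dehydrogenase Aldh3a2 was lower in both states (−0.87 fasted and −0.69 fed), and Cyp4v3, Cyp4f14 and Cyp4b1 were not called in fasted mice (0.03, 0.022 and 0.32).

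Regulators and other genes that respond to PPARα had 16 of 21 tested, with 5 lower and 2 higher (43.8% called, against 36.8% of all tested genes). Retsat, which saturates retinol and is needed for fat cell formation, had the largest fall among the genes of the target lists, from 469, 394 and 636 to 116, 108 and 104 (−2.16, standard error 0.14, adjusted p = 4.43e-07), and its fed difference was much the same (−2.36). Ppargc1a, the coactivator that raises mitochondrial number, had 61.9, 85.6 and 91.0 against 29.5, 34.1 and 24.6 (−1.43, standard error 0.14, adjusted p = 9.44e-06). Vnn1, a pantetheinase that recycles a precursor of coenzyme A, had 2074, 1435 and 1839 against 778, 910.0 and 840.3 (−1.07, standard error 0.14, adjusted p = 6.84e-05). Of the 3 other probe sets of Ppargc1a, 2 fell and 1 was not called (−0.19). Neither Ppargc1a nor Vnn1 was called in fed mice (−0.033 and −0.034), and both differed between the states (adjusted p = 0.000481 and 0.00254). The nuclear receptor Nr1h3 and Aqp3, a channel for glycerol, were the others that fell (−0.54 and −0.90). The call of Aqp3 was lost without PPARα-null replicate 3 or wild-type replicate 2 (−0.78 to −0.75), and 3 genes of the list were called lower without PPARα-null replicate 3.

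Pdk4 turned between the states. This kinase, which blocks the entry of pyruvate into the citrate cycle, had 579.6, 391 and 315 in wild-type fasted and 1064, 1108 and 707 in PPARα-null fasted arrays, so that the null mice were higher by 1.18 (standard error 0.24, adjusted p = 0.00161). In fed mice the order was the opposite, with 149, 150.1 and 147 in wild-type and 52.4, 80.3 and 48.0 in PPARα-null arrays (−1.34, adjusted p = 0.021). The difference between the states was 2.52 (standard error 0.33, adjusted p = 0.000248). Txnip, an inhibitor of glucose uptake, also rose in fasted mice (545, 602 and 628 against 1164, 1101 and 987, 0.87) and had −0.20 in fed mice. Creb3l3, Gpd1 and Slc16a1 overlapped and were not called (0.13, 0.0013 and 0.0052).

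Lipid droplet, triglyceride synthesis and lipolysis genes had more members that rose than fell, 6 and 2 of 17 tested, with 23 on the array and a median of 0.20 over all 23. Called were 47.1% of those tested, against 36.8% of all tested genes. Dgat2, which adds the last fatty acid to a triglyceride, had 882, 749 and 576 in wild-type and 2093, 2027 and 1898 in PPARα-null fasted arrays, well apart (1.47, standard error 0.14, adjusted p = 8.01e-06). In fed mice it had −0.30, and the states differed by 1.77 (adjusted p = 9.81e-05). Dgat1, the other enzyme of this step, overlapped (0.042). The lysosomal lipase Lipa (0.67), the phosphatidate phosphatase Lpin3 (0.68), the lipase Pnpla2 (0.59), the acyltransferase Agpat3 (0.51) and the droplet protein Cidec (0.60) rose as well. The call of Cidec was lost without PPARα-null replicate 2 or 3 or wild-type replicate 2 or 3 (0.53 to 0.60). Plin2, the coat protein of lipid droplets, fell from 752, 652 and 665 to 487, 503 and 499.8 (−0.47, adjusted p = 0.000499), and lipoprotein lipase, Lpl, from 37.9, 47.9 and 48.2 to 22.0, 23.4 and 33.9 (−0.77). For Plin2 the fed difference was −0.14, and for Lpl −0.59. Of 7 adipocyte markers 4 were tested, and Cidec and Lpl among them belong to this list as well. Fabp4 and Cidec rose and Lpl fell (75% called, against 36.8% of all tested genes). The summed intensity of the markers was 1645 to 1985 in PPARα-null and 870.2 to 1054 in wild-type fasted arrays, and most of it was Fabp4. Their mean on the log2 scale overlapped, with 6.93 to 7.48 in PPARα-null and 6.85 to 7.22 in wild-type fasted arrays. The defining genes Adipoq, Lep and Retn had a mean of 20 or lower in both fasted groups. The part of fat tissue in these differences was not tested.

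**Figure D2:**
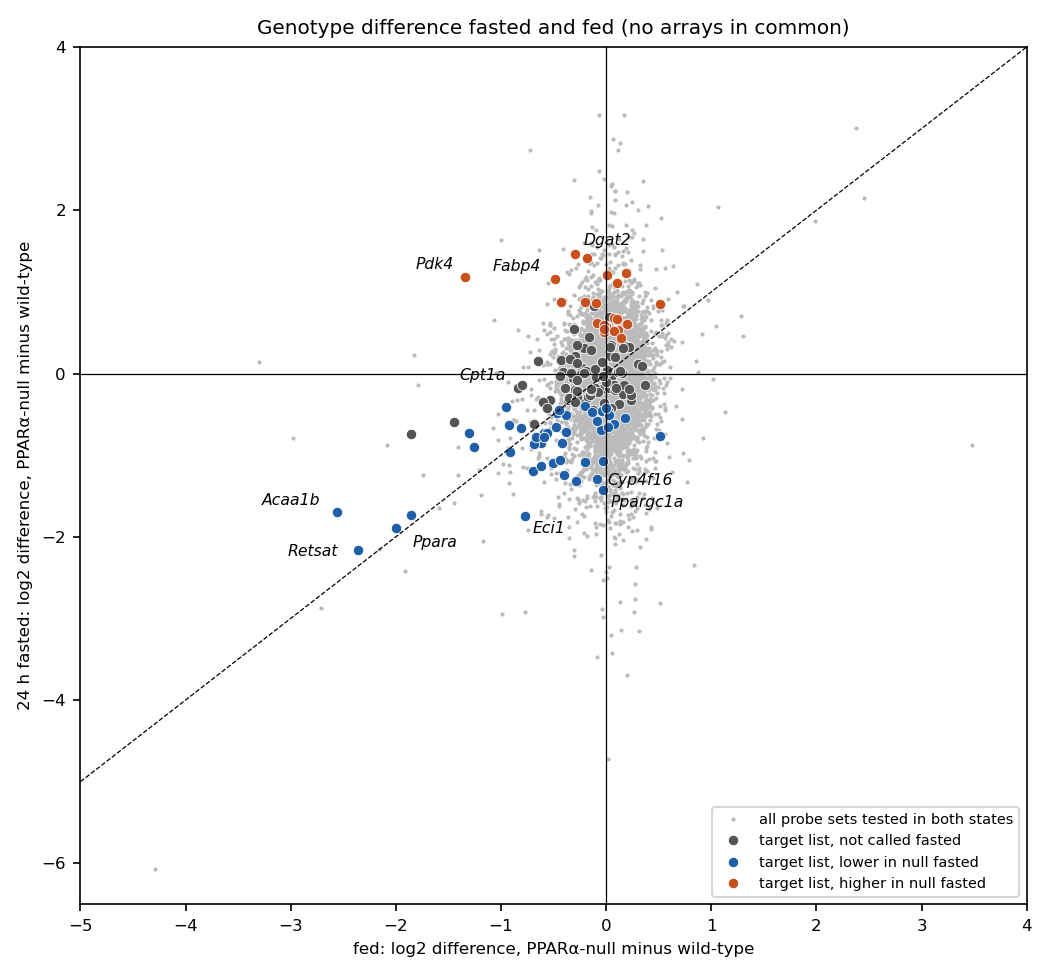
Log2 genotype difference (PPARα-null minus wild-type) in 24 h fasted mice on the y axis against that in fed mice on the x axis, for all probe sets tested in both states (grey), with members of the target lists coloured by their fasted call. The dashed line marks equal differences. The 2 contrasts share no arrays. Ppara, Retsat and Acaa1b lie far below 0 in both states, Cyp4f16 and Ppargc1a near 0 when fed and below it when fasted, and Pdk4 at −1.34 fed and 1.18 fasted.

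Fatty acid synthesis and desaturation is the counterpart of oxidation, and 13 of its 18 genes on the array were tested. In fasted PPARα-null mice 6 of these were lower (46.2%, against 19.7% of all tested genes) and none was higher. Me1, the malic enzyme that supplies NADPH, fell from 169, 389 and 329 to 28.8, 57.3 and 33.0 (−2.88, standard error 0.37, adjusted p = 6.48e-05), and by about as much in fed mice (−2.71). Scd2, a desaturase, had 33.2, 49.2 and 50.0 against 10.4, 11.3 and 9.76 (−2.05) and was lower in fed mice too (−1.18). Fads2 (−0.84), Acss1 (−0.60), Elovl5 (−0.55) and Elovl6 (−0.54), which desaturate, activate or lengthen acyl chains, were the others. Without PPARα-null replicate 3 or wild-type replicate 1, 1 gene of the list was called higher. Fasn, the fatty acid synthase (−0.37), and the regulator Mlxipl (−0.052) were not called.

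Cholesterol synthesis genes had 4 of 16 tested called (25%, against 36.8% of all tested genes), 3 higher and 1 lower, and 2 were lower without wild-type replicate 2 or 3. The assembly of chylomicrons, the particles that carry dietary fat into lymph, had 3 of 10 called (30%), all of them higher. Msmo1, a sterol oxidase, had 371, 294 and 327 against 552, 617 and 421 (0.67), and Srebf2, the regulator of this pathway, rose with 1 probe set (0.59) and not with the other (0.52). Stard4, a cholesterol carrier, fell (−0.60). Apobec1, which edits the message of apolipoprotein B, had 161, 128 and 155 against 275, 216 and 221 (0.68), and Sar1b, which loads chylomicrons into vesicles, 1429, 1419 and 1463 against 1845, 2164 and 1912 (0.45). Apoc3 rose as well (0.38). Apoa1 had 0.19 and was not called.

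Bile acid and sterol genes rose in 4 of 9 tested cases, and 1 fell (55.6% called, against 36.8% of all tested genes). Slc10a2, which takes up bile acids in the ileum, had 25.5, 30.9 and 25.5 in wild-type and 47.9, 46.9 and 48.2 in PPARα-null fasted arrays (0.81, standard error 0.17, adjusted p = 0.00191). Slc51a, a subunit of the exporter on the other side of the cell, and Nr1h4, the bile acid receptor, rose by 0.59 and 0.72, next to Fabp6 above. Cyp27a1, a sterol hydroxylase, had 801, 407 and 666 against 1311, 1128 and 1111 (0.97). The exporter Abca1 fell (−1.18), but this call was lost without PPARα-null replicate 1 or 3 or wild-type replicate 1 or 3 (−1.24 to −0.93).

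Glucose handling had 27 of 28 genes tested, 7 higher and 3 lower (37% called, against 36.8% of all tested genes). Without PPARα-null replicate 2, 5 were called lower. G6pc, the phosphatase that releases glucose from cells, had 351, 176 and 289 in wild-type and 672, 859.8 and 706 in PPARα-null fasted arrays, all 3 of the latter being higher (1.5, standard error 0.29, adjusted p = 0.00119). Pck1, the other marker of gluconeogenesis, had 2216, 2251 and 1786 against 3499.7, 2892 and 3031 (0.59), and in fed mice it was lower (−0.53), the difference between the states passing the test (adjusted p = 0.00334). The alanine and aspartate transaminases Gpt (0.82) and Got1 (0.72), pyruvate carboxylase, Pcx (0.82), Pgk1 (0.54) and Pkm (0.39) rose as well. Fbp1 (−0.52), Pfkl (−0.58) and the fructose carrier Slc2a5 (−0.93) fell, the last losing its call without PPARα-null replicate 1 or 3 or wild-type replicate 3 (−0.88 to −0.71). Mitochondrial carriers of the SLC25 family moved both ways, with 4 of 17 tested higher and 4 lower (47.1% called, against 36.8% of all tested genes). Slc25a37, which imports iron, fell from 150.3, 163 and 149 to 44.6, 66.3 and 55.0 (−1.5), whereas its relative Slc25a28 rose from 177, 143 and 145 to 241, 267 and 359.9 (0.89).

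Enzymes that modify drugs and electrophiles were followed next. Of the glutathione S-transferases 18 of 20 were tested, 6 rose and 2 fell (44.4% called, against 36.8% of all tested genes). Gsta3 had 14.2, 31.5 and 29.4 against 63.3, 82.1 and 68.1 (1.58, standard error 0.32, adjusted p = 0.00188), and Gstm1 164, 558 and 504 against 830.1, 1378 and 966 (1.53). The difference of Gstm1 was 0.96 without wild-type replicate 1, and its call was lost without PPARα-null replicate 2 (1.32), without which 3 genes of the list were called higher and 3 lower. Gsta4 (1.14), Gstm2 (1.29), Gsta2 (1.22) and Gstm3 (0.93) were the others, and Gstt3 (−0.57) and Gstt2 (−0.56) fell. These genes are close relatives, and their probe sets may read more than 1 of them. Of the P450s that handle drugs 10 of 23 were tested and 2 rose, a share of 20% that is near the 16.4% of all tested genes. Cyp2b10 had 198, 317 and 459 in wild-type and 623, 857 and 878 in PPARα-null fasted arrays (1.34) and Cyp3a11 2313, 2214 and 2522 against 3061, 3204 and 3284 (0.44). Neither was called in fed mice (0.0022 and 0.034), and 1 P450 was called lower in fasted mice without wild-type replicate 1.

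Genes that interferons induce had 28 of 43 tested in fasted mice, 13 lower and none higher (46.4% called, against 19.7% of all tested genes lower). None of the 37 tested in fed mice was called, where the share over all tested genes was 3.44%. The median over all 43 was −0.38 in fasted and 0.19 in fed mice. Irgm2, a GTPase of the defence against intracellular microbes, had 76.7, 262 and 118 in wild-type and 8.78, 14.1 and 8.85 in PPARα-null fasted arrays (−3.69, standard error 0.43, adjusted p = 3.17e-05). The GTPases Igtp (−2.43), Gbp7 (−1.73), Iigp1 (−1.51) and Ifi47 (−1.38), the antiviral genes Oasl2 (−1.52) and Ifit1 (−1.33), the regulator Irf1 (−1.21) and the immunoproteasome subunits Psmb9 (−1.51), Psmb8 (−0.83) and Psmb10 (−0.54) fell with it. Parp14 (−2.81) and Ifi35 (−0.59) complete the 13. B2m, the light chain of MHC class I, had 4235 to 4483 on all 6 arrays and was not called (0.033). Leaving out each array in turn left 9 to 14 of these genes lower. Lymphocyte and plasma cell markers were lower beside them, with 8 of 11 tested called (72.7%, against 19.7% of all tested genes lower). Their summed intensity was 968.2 to 1164 in PPARα-null and 1756 to 2251 in wild-type fasted arrays, and 4 were called lower without wild-type replicate 1. Gzmb, the granzyme of cytotoxic lymphocytes, had 67.2, 72.1 and 62.4 against 9.06, 7.17 and 10.1 (−2.95), and the leukocyte marker Ptprc was at −1.21. Cd3e and Cd4 had means of 20 or lower in both fasted groups, and Cd3g was at −0.91. In fed mice 4 of 13 lymphocyte genes were lower and 1 higher, against 2.02% and 1.42% of all tested genes. These 4 were lower in fasted mice too, and Gzmb was among them. The part of lymphocyte content in the interferon genes was not tested.

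Circadian clock genes had 12 of 17 tested, and 8 were higher and 1 was lower in fasted PPARα-null mice. Called were 75% of the 12, against 36.8% of all tested genes. Nr1d1, the repressor REV-ERBα, had 54.1, 60.0 and 65.2 in wild-type and 474, 432 and 307 in PPARα-null fasted arrays (2.74, standard error 0.27, adjusted p = 8.29e-06). Arntl, the clock activator BMAL1, which Nr1d1 represses, had 13.8, 10.2 and 13.8 against 55.3, 51.1 and 47.7 (2.04) and was higher in fed mice as well (1.06). Nfil3, Per1 and Hlf, which follow, were not over the level of 20 in fed mice. Nfil3 (1.71), Per1 (1.65), Hlf (1.27), Cry2 (1.14), Bhlhe40 (0.79) and Npas2 (0.74) rose too. Dbp fell (−1.65), as it did in fed mice with its other probe set (−1.74), which was called lower in fasted mice too. The fasted call of the first probe set was lost without PPARα-null replicate 1, 2 or 3 or wild-type replicate 2 or 3 (−1.76 to −1.42). No clock gene was called lower without PPARα-null replicate 1 or 3 or wild-type replicate 2 or 3. The fasts began when the lights went on, according to the methods, and whether all mice of both genotypes were killed at the same hour is not stated there.

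Of 9 tested genes of the amino acid stress response 1 rose and 2 fell (33.3% called, against 36.8% of all tested genes). Without wild-type replicate 1, 3 were called higher, and without wild-type replicate 2, 2 were. Ddit4, which restrains the growth kinase mTOR, had 47.6, 62.6 and 28.1 against 258, 154 and 220.2 (2.24, standard error 0.25, adjusted p = 2.42e-05). Aldh18a1, which starts proline synthesis, fell (−0.79). Ddit3 also fell (−0.50), but lost its call without any 1 of the 6 arrays (−0.53 to −0.44). In fed mice Ddit3 was called higher. Of the 6 tested genes of MHC class II 33.3% were called, against 36.8% of all tested genes. H2-Ea was higher (0.56) and H2-DMa lower (−0.66). The first lost its call without PPARα-null replicate 3 or wild-type replicate 2 (0.49), the second without PPARα-null replicate 1 or 3 or wild-type replicate 2 (−0.65 to −0.45), and Cd74 overlapped (0.024).

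**Figure D3:**
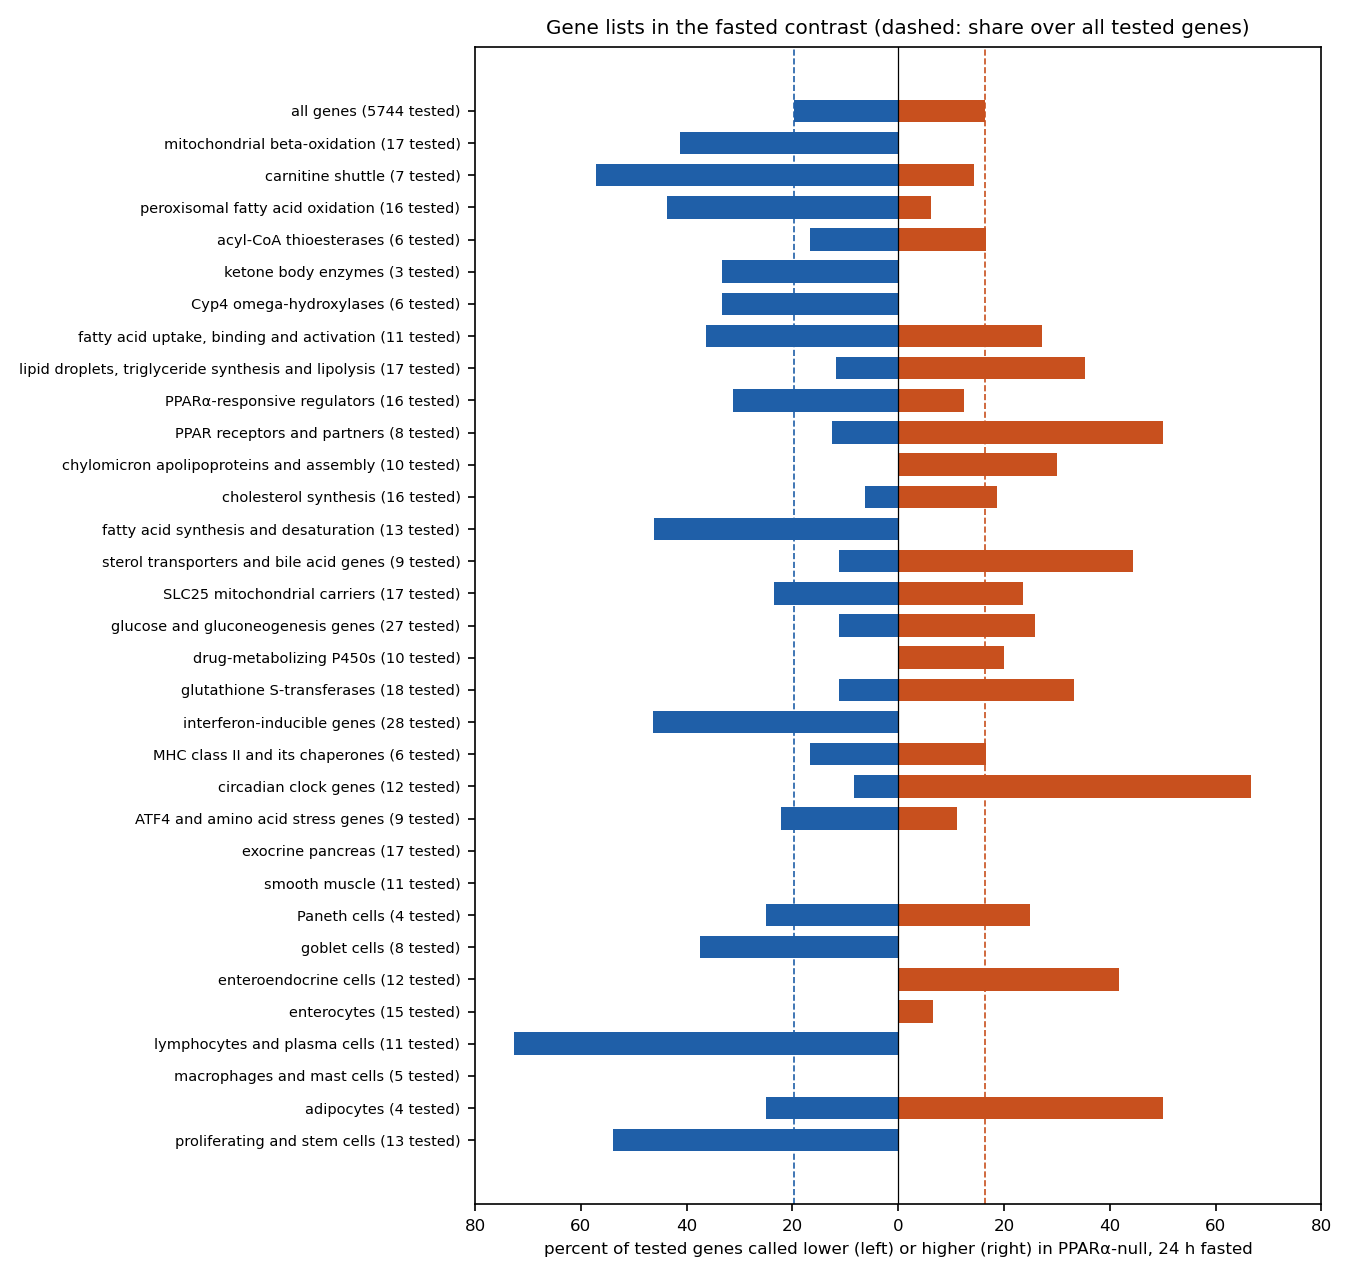
Percent of the tested genes of each list that were called lower (bars to the left) or higher (bars to the right) in PPARα-null fasted mice, with the number tested beside each list. The dashed lines mark 19.7% lower and 16.4% higher over all 5744 tested genes. Mitochondrial β-oxidation, fatty acid synthesis, interferon-inducible, lymphocyte and proliferation genes have bars to the left only, clock genes mostly to the right, and pancreas, smooth muscle and macrophage genes have none.

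Markers of the cell types of the gut wall gave the makeup of the samples. Enterocyte markers were high on all arrays, with a summed intensity of 65832 to 71020 over 15 genes in the fasted mice. Of the 15, 1 was called, the alkaline phosphatase Akp3 (0.55), a share of 6.67% against 36.8% of all tested genes. That call was lost without PPARα-null replicate 1, 2 or 3 or wild-type replicate 1 or 3 (0.43 to 0.57). No smooth muscle gene of 11 tested and no macrophage or mast cell gene of 5 was called, against 36.8% of all tested genes. The 5 are too few to set against that share. Without wild-type replicate 1, 2 macrophage or mast cell genes were called higher, and without wild-type replicate 2 or 3, 1 smooth muscle gene was. Of 13 tested markers of proliferating and stem cells 7 fell, among them Myc (26.7, 27.8 and 33.7 against 10.3, 10.8 and 8.96, −1.55), Axin2 (−1.17), a target of Wnt signals, and Mki67 (−0.48), and none was called in fed mice. The 7 were 53.8% of those tested, against 19.7% of all tested genes lower. Without wild-type replicate 2, 1 of these markers was called higher. Their summed intensity was 1560 to 1751 in PPARα-null and 1793 to 2282 in wild-type fasted arrays, and 4 genes were called lower without PPARα-null replicate 3 or without wild-type replicate 3. Atoh1, the factor that commits cells to the secretory lineage, fell from 96.1, 93.0 and 119 to 15.9, 31.1 and 11.1 (−2.53, standard error 0.29, adjusted p = 2.39e-05), and of the other goblet cell genes Clca1 (−0.44) and Agr2 (−0.54) fell and Tff3, Fcgbp and Zg16 were not called. Agr2 lost its call without PPARα-null replicate 1 or 3 (−0.52 to −0.47). Of 12 enteroendocrine genes 5 rose (41.7%, against 16.4% of all tested genes). Chga, the chromogranin of hormone granules, had 91.1, 71.2 and 57.3 against 171, 129 and 107 (0.89). The enteroendocrine list had 1 gene called higher without wild-type replicate 3 and 2 without PPARα-null replicate 1. Among Paneth cell genes Pla2g2a rose (1.16), Lyz1 was not called, and Mmp7 fell (−0.43) with a call that was lost without PPARα-null replicate 1 or 3 or wild-type replicate 3 (−0.42 to −0.30).

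None of the 12 largest falls was that of a gene of the 10 target lists as drawn up here, which do not hold every known target. Me1, among the 12, was placed in the list of fatty acid synthesis. Nfe2l2, which encodes NRF2, the activator of antioxidant genes, had 1005, 1239.5 and 1337 in wild-type fasted and 50.3, 60.0 and 30.2 in PPARα-null fasted arrays, a fall of 26.4-fold (−4.72 on the log2 scale, standard error 0.20, adjusted p = 8.83e-09). In fed mice it was not called (0.021). Nat8f4, an acetyltransferase, followed Irgm2 with 224, 385 and 318 against 21.2, 34.9 and 27.4 (−3.47). Trmt1l, which resembles tRNA methyltransferases, had 103, 105 and 137 against 12.3, 16.7 and 10.4 (−3.14), and Fam136a, a protein of mitochondria, 156, 146 and 151 against 22.1, 17.7 and 17.8 (−2.98). Zfand5 (−3.42), a zinc finger protein, Tardbp (−3.21), an RNA-binding protein, Rras2 (−2.76), a small GTPase, and Frmd4b (−2.57) were next to them. Tardbp fell with 3 of its 4 probe sets, whereas Zfand5, Rras2 and Frmd4b fell with 1 probe set each that their other probe sets did not follow. Me1, Gzmb and Parp14, given above, make up the rest of the 12 largest falls.

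Among the largest rises stood Ces1d, a carboxylesterase that splits lipid esters, with 41.5, 42.2 and 47.6 in wild-type and 397, 346 and 441 in PPARα-null fasted arrays (3.17, standard error 0.19, adjusted p = 1.45e-07), and its other probe set rose too (2.74). Pim3, a kinase, had 48.9, 52.3 and 37.5 against 336, 286 and 397 (2.88), and Klf9, a factor that glucocorticoids induce, 42.5, 39.2 and 31.8 against 194, 157 and 245 (2.38). Errfi1, an inhibitor of the EGF receptor, was at 2.37, Cirbp, an RNA-binding protein that cold induces, at 2.48, and the phosphate carrier Slc20a1 at 2.55. None of the first 5 was called in fed mice, where the probe set of Slc20a1 named here was not over the level of 20, and the difference between the states passed the test for all 6 (adjusted p from 7.7e-06 to 0.000232). Nr1d1, given above, belongs here as well.

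The metallothioneins, which bind zinc and copper, rose with an uneven spread. Mt1 had 6.70, 10.3 and 9.75 in wild-type and 65.5, 35.7 and 57.5 in PPARα-null fasted arrays (2.55, standard error 0.20, adjusted p = 1.36e-06). Mt2 had 124, 1685 and 1534 against 3359.8, 2875 and 4449, so that 1 wild-type array was far below the other 2. Its difference was 2.35 (standard error 0.73, adjusted p = 0.0207), it was 1.12 without wild-type replicate 1, and the call was lost without PPARα-null replicate 1, 2 or 3 (2.18 to 2.5). Zbtb16, a zinc finger factor, had 42.8, 5.08 and 4.14 against 75.3, 48.9 and 43.6, and its difference of 2.49 became 3.57 without wild-type replicate 1. Ap2a2, a subunit of the adaptor complex of endocytosis, had the largest rise (90.7, 70.0 and 68.4 against 549.6, 837 and 691, 3.17), and a second probe set gave 2.82, whereas its 3 others gave 0.16, 0.15 and −0.0058 and were not called.

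**Figure D4:**
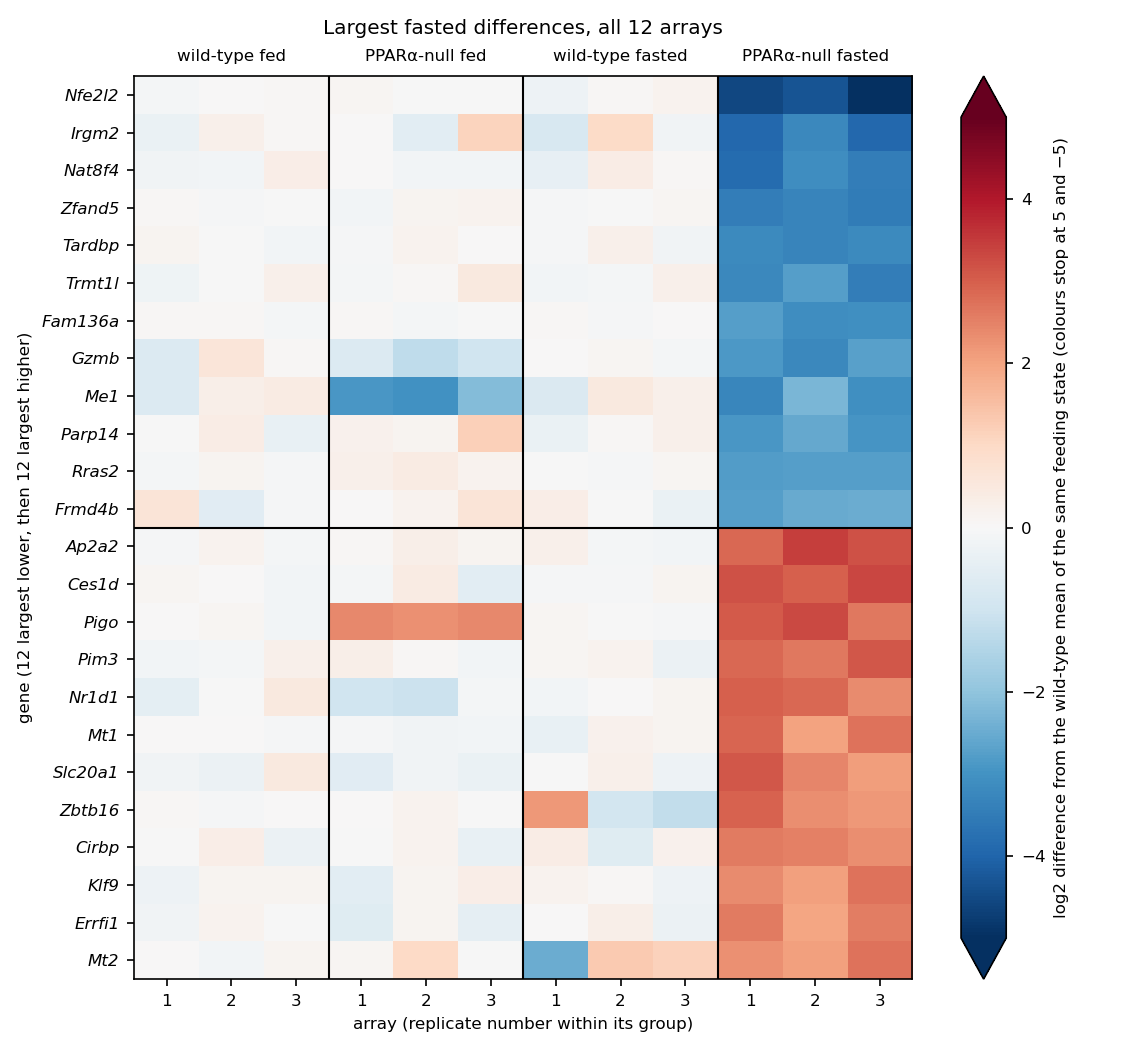
Log2 difference of each array from the wild-type mean of the same feeding state (colour, stopping at 5 and −5) for the 12 largest falls and the 12 largest rises in PPARα-null fasted mice, genes on the y axis and the 12 arrays on the x axis. Nfe2l2, at −4.72 on average, is the darkest blue. Me1 and Pigo show their difference in the fed arrays too, and Gzmb was also called lower in fed mice. Mt2 and Zbtb16 show 1 wild-type fasted array apart from the other 2.

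A smaller group of genes differed between the genotypes in both states. Of the 204 genes called in fed mice, 191 were tested in fasted mice, 56 were lower in both and 25 higher in both, and 29 were called in opposite directions, where any probe set of a gene could make the call. With the same probe set in both states, 51 genes were lower in both, 22 higher in both and 21 opposite. The other 8 genes counted in 1 direction, among them Cflar, Kmt5b and Ppp2r5c, were called through different probe sets. The genes called the same way were 39.7% of the fed calls and 3.84% of the fasted calls. At an adjusted p under 0.05 in both states, 26 genes were lower and 4 higher. The 4 were Pigo, Clta, Chka and Creb3. Pigo, an enzyme of the synthesis of membrane anchors, had 36.7, 33.8 and 33.4 against 289.7, 344 and 217 in fasted arrays and differed by 3.01 fasted and 2.38 fed. Chka, choline kinase, differed by 0.91 and 0.97. Clta, the light chain of clathrin, differed by 1.87 and 1.98 with 1 probe set, while its other probe set gave 0.14 in fasted mice. Creb3 had 0.71 and 1.28 with 1 probe set, and −0.33 and −0.16 with its other 2 in fasted mice. The 6 lower genes with the largest fasted falls were Me1, Retsat, Scd2, Ppara, Eci1 and Acaa1b, all given above.

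Probe sets of 1 gene did not always move together in fasted mice. Of 418 genes with several called probe sets, 379 had them all in 1 direction and 39 in both. In fed mice all 23 such genes had them in 1 direction, which are too few for a comparison with the fasted share. Fem1b, which recognizes substrates of a ubiquitin ligase, had with 1 probe set 4.33, 4.55 and 4.49 in wild-type and 22.8, 30.7 and 16.4 in PPARα-null fasted arrays (2.34), and with the other 76.4, 79.98 and 81.9 against 20.1, 21.3 and 17.7 (−2.02). Each of these probe sets had a mean over 20 in 1 genotype only, and its mean in the other was below 20. Of the 39 genes, 28 were opposed among probe sets with a mean over 20 in both genotypes. For Zfand5, 378, 379.6 and 413 against 35.2, 39.8 and 34.5 with the probe set that fell stood against 373, 405 and 422 against 487, 539.8 and 556 with 1 of the 2 that rose (0.40). Tardbp had 3 probe sets that fell, from −3.21 to −0.86, and 1 that rose (0.46), and Rras2 1 of each (−2.76 and 0.43).

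Yy1, a zinc finger factor, rose with 1 probe set (1.87), fell with another (−0.86) and was not called with the remaining one (−0.039). Opposed in the same way were the probe sets of Kmt5b, a histone methyltransferase (1.17 and −1.90), and of Cflar, an inhibitor of death receptors (1.0 and −1.88). The clock kinase Csnk1d had 2 probe sets that rose (0.95 and 1.14) and 3 that fell (−1.07 to −0.62), and the splicing factor Srsf6 2 that rose (1.07 and 1.24) and 1 that fell (−0.96). No single direction is given for these genes. Ratios of 3′ to 5′ control probe sets, a measure of RNA integrity, were 1.68 to 1.77 for Actb in PPARα-null and 1.77 to 1.89 in wild-type fasted arrays, and 1.18 to 1.26 and 1.22 to 1.25 for Gapdh. The 3 PPARα-null fasted arrays lay outside the range of all other 9 arrays on 3040 of the 9217 probe sets (33.0%), and the 3 wild-type fasted arrays on 937 (10.2%), a count that sets fed and fasted arrays side by side although each had a distribution of its own. The part of RNA integrity and of the substrains in the opposed probe sets was not tested.

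**Figure D5:**
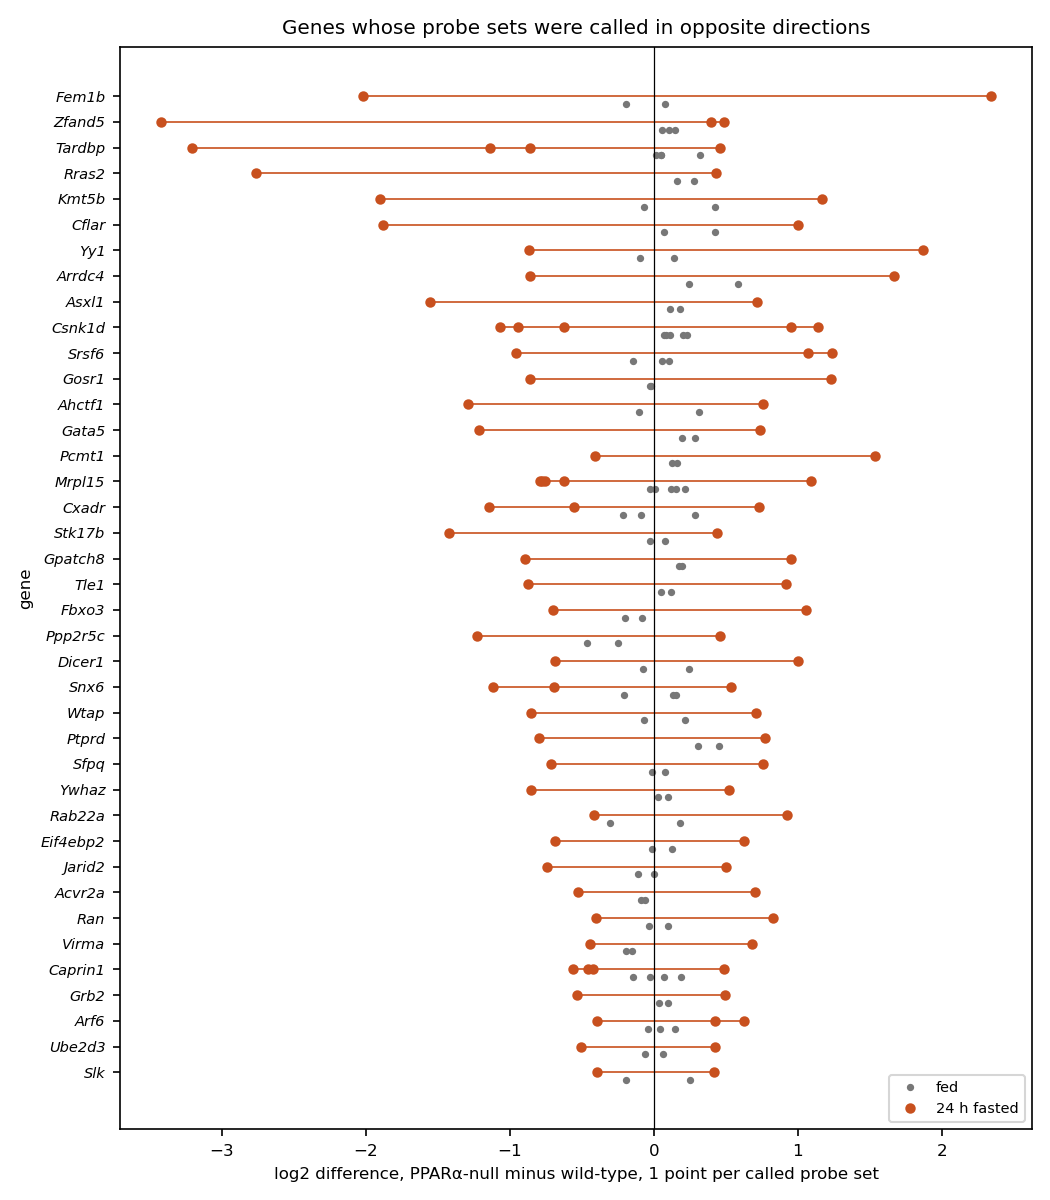
Log2 genotype difference (x axis, PPARα-null minus wild-type) of each called probe set of the 39 genes (y axis) whose probe sets were called in opposite directions in 24 h fasted mice (red, joined by a line), with the same probe sets in fed mice (grey). Fem1b spans −2.02 to 2.34 when fasted, and the grey points lie closer to 0 than the red ones for every probe set except 1 of Ppp2r5c (0.46 fasted and −0.47 fed). The probe sets were chosen by their fasted calls, a choice that by itself favours larger fasted than fed differences.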

How the data were processed

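RNA of 12 small intestine samples had been hybridised to 12 single-colour arrays, 3 per group. The deposited intensities were made by the authors with GCRMA 2.20 and are on a linear scale. The settings of that step are not given in the sources used here. Intensities were taken to log2 and fitted with limma 3.58.1 in R 4.3.3, with 1 mean for each of the 4 groups, so that all 12 arrays share 1 estimate of the spread. Gene symbols came from the platform annotation. Of 22690 probe sets 20393 had 1 symbol, 691 several and 1606 none, and a gene was counted once where any probe set with its symbol alone was called. Members and lists were chosen with earlier results of these data known. Named were Ppara, the 12 largest rises and falls with an adjusted p under 0.05 and no overlap of arrays, up to 4 called genes each way and 3 not called per target list, 2 each way and 1 not called in other lists, 2 and 2 in marker lists, 6 each way shared with fed mice, and 5 each way by the difference between the states. Other list members and the genes with opposed probe sets were named after their values were seen. Alternatives covered the level, the threshold, the scaling, the variance model, the arrays used, the replicate number as a block and 1 probe set per gene. The procedure was tested on simulated data. An exact permutation test of 3 against 3 arrays cannot go below a two-sided p of 0.10. Promoter windows and their coordinates are those of RefSeq, build GRCm38.p6. Some well-known target genes, such as those without a probe set of a single symbol, were not analysed here.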

Additional observations from a re-analysis of the deposited data

Results flagged for a closer look

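The genotype difference was not the same in fasted and fed mice for 1810 genes (limma, adjusted p under 0.05). The genes with the most positive change of the difference, fasted minus fed, were Nr1d1 at 3.46, Ces1d at 3.23, Ap2a2 at 3.00, Slc20a1 at 2.90 and Pim3 at 2.81 on the log2 scale (adjusted p = 6.99e-05, 7.7e-06, 3.14e-06, 0.000151 and 8.01e-06). The genes with the most negative change were Nfe2l2 at −4.74, Irgm2 at −3.89, Zfand5 at −3.48, Nat8f4 at −3.38 and Parp14 at −3.32 (adjusted p = 6.4e-07, 0.00077, 3.22e-08, 1.29e-05 and 7.71e-05). Of these, Zfand5 and Ap2a2 had other probe sets that did not follow, with changes of 0.38 and 0.25 for Zfand5 and of 0.48, 0.029 and 0.052 for Ap2a2, none of which passed the test. The probe set of Slc20a1 was not over the level of 20 in fed mice, and the other 9 were not called there. Fed and fasted arrays each had a distribution of values of their own, and its part in these differences was not tested. Groups of 3 arrays are too small for a check of single arrays that stand apart.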

How the results depend on the processing

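In fasted mice 2112 genes were called, and 16 of 17 alternatives gave a count within 1.5 times of that, the exception being a mean intensity over 100 (1057). In fed mice 15 of 17 did so, the exceptions being a mean over 100 (106) and the requirement of an adjusted p under 0.05 beside the fold (43). For the difference between the states 21 of 22 did so, against 1037 with a mean over 100. Leaving out each array in turn gave 1930 to 2052 genes in fasted mice, 191 to 244 in fed mice and 1534 to 1744 for the difference between the states. With the probe set of the highest mean standing for a gene, Zfand5 became 0.40, Rras2 0.43, Frmd4b 0.084 and Creb3 −0.33, each opposite to the value given first. In that setting Ap2a2 had 0.16, Aqp3 −0.60, Clta 0.14, Dbi −0.37 and Srebf2 0.52, none of them called. Of 110 named probe sets that were called, 80 kept the same call in every alternative that tested them.

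Replicate numbers are shared by the groups, but they did not pair the samples, since same-numbered fasted arrays deviated from their group means with correlations of 0.067, −0.049 and −0.207. With the replicate number as a block, 2089 genes were called in fasted mice, 215 in fed mice and 1733 for the difference between the states, and no call of a named gene changed. The counts of list members without single arrays were computed after seeing the data. Calls of Abca1, Dbp, Gstm1, Zbtb16 and Mt2 were lost with a variance that follows the mean and is estimated robustly, both set together. Those of Acbd3, Agr2, H2-DMa, Mmp7, Mt2 and Zbtb16 were lost with the 6 fasted arrays alone. Those of Akp3 and Mt2 were lost with the pancreas signal as a covariate (chosen after seeing the data). The call of Akp3 was lost with quantile normalization, and those of Ddit3 and Mmp7 with centred arrays. Centring moved the median fasted difference from −0.0055 to 0.056 and the higher share of the calls from 44.7% to 53.6%. Signals near background limit what a low gene can show.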
